A study of Mus musculus with 9 samples.

Results

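Collagen genes were taken from RNA sequencing of the mouse embryonic forebrain as the rows of the count table whose symbol is Col, a number, the letter a and a number, and whose counts summed to 90 or more over the 9 embryos. Of the 55401 genes in the table, 44 carried such a symbol and 43 met the rule. Col10a1, the hypertrophic cartilage collagen, fell outside with 81 counts, and Col17a1, the transmembrane collagen of hemidesmosomes, was the closest inside with 93. All 43 also passed the filter on low counts that left 17818 genes for testing. The forebrains came from female embryos at embryonic day 16 to 17, 5 of them Npas3+/+ (WT, written Npas+/+ in the labels) and 4 of them Npas3+/- (HET, written Npas+/-). Both groups were on the C57BL/6J background, WT embryos were littermates from crosses of HET mice with HET or C57BL/6J mice, and the HET embryos carried 1 knockout allele that was not restricted to a cell type. NPAS3 is a transcription factor of the basic helix-loop-helix PAS family. Levels are given as CPM, the count of a gene scaled by the effective size of its library. The comparison asks which collagen genes differ in level in a forebrain with 1 copy of Npas3. The labels call the cell type astrocytes but describe whole forebrain tissue, and the libraries held neuronal markers at a summed 4666 to 5436 CPM against 278.5 to 365.9 CPM for markers of mature astrocytes. The litter of each embryo is not given in the labels. Whether the embryos are independent, and whether litters were balanced between the groups, therefore cannot be checked. The p-values judge a difference against the spread between these embryos, which may be partly technical.

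Collagens are extracellular proteins in which 3 chains wind into a triple helix. Fibrillar collagens (types I, II, III, V, XI, XXIV and XXVII) pack into striated fibrils, fibril-associated collagens sit on their surface, and type IV collagens form the sheet-like network of basement membranes. In the embryonic brain, basement membranes lie around blood vessels and under the meninges, where the end feet of radial glia attach, and the meninges and vessel walls hold fibrillar collagen. The choroid plexus, which makes cerebrospinal fluid, is an epithelium on a core of stroma and vessels.

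Library totals ran from 42640218 to 62830060 counts, and collagen genes took 0.0742% to 0.0964% of them. In the check on the labels, Npas3 stood at 40.8, 35.4, 29.7, 38.2 and 37.0 CPM in WT5, WT15, WT16, WT41 and WT43 and at 27.9, 28.2, 34.1 and 27.8 CPM in HET5, HET6, HET7 and HET24, so its mean was lower in HET but the groups overlapped. The libraries also stood apart in Ttr, the transthyretin gene of choroid plexus epithelium. Ttr was at 2534, 2125 and 2629 CPM in WT15, WT16 and WT41 and at 466.3 CPM in HET24, and at 0.769 and 2.14 CPM in WT5 and WT43 and 5.78, 2.47 and 11.7 CPM in HET5, HET6 and HET7. High Ttr was thus in 3 of 5 WT and 1 of 4 HET embryos, so values from 2 further models are given beside results that moved with it, a model with a choroid plexus score as a covariate (the mean log2 CPM of 8 epithelial markers) and a model of the 5 embryos under 100 CPM of Ttr alone. Because these are bulk libraries, fewer cells of a type and less RNA per cell cannot be told apart.

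The 6 type IV genes lay in 3 head-to-head pairs, and the start regions of the closest pairs, together with those of the short-chain genes that spanned the widest range of levels, are given from the RefSeq sequence of GRCm38.p6. Col4a1 (chromosome 8, minus strand) and Col4a2 (plus strand) had annotated starts that overlapped by 22 bases at chr8:11312805-11312826, written here on the plus strand, which lie within the first exons of both genes. Col4a4 (chromosome 1, minus strand) and Col4a3 (plus strand) were separated by the 71 bases of chr1:82586850-82586920, also on the plus strand. Col4a6 and Col4a5 on the X chromosome had 1308 bases between them. The last lines hold the 250 bases before the start of Col8a1 (chr16:57754738-57754987, minus strand) and of Col8a2 (chr4:126286544-126286793, plus strand). Capitals mark the E-box, CANNTG, the 6-letter element that basic helix-loop-helix proteins bind, which reads the same on both strands.
Col4a1 and Col4a2 shared start: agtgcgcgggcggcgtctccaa
Col4a4 to Col4a3 interval: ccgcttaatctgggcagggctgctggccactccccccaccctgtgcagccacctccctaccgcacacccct
Col8a1 upstream: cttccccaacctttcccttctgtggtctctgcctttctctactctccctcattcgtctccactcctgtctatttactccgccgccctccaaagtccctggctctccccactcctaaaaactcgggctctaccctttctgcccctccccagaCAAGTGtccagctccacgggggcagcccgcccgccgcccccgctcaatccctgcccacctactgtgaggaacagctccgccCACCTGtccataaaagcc
Col8a2 upstream: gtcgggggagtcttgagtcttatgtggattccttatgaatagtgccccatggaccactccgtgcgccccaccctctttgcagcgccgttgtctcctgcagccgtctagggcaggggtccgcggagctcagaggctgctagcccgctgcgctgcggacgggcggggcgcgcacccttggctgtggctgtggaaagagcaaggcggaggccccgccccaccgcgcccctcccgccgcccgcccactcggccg

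The Col8a1 stretch held 2 E-boxes and the Col8a2 stretch held 0. Over the 250 bases before the start, 18 of the 34 collagen genes with an entry in the RefSeq promoter table held at least 1 E-box (52.9%), against 17848 of all 27025 genes in that table (66%). Col1a1, Col2a1, Col4a3, Col5a2, Col9a3, Col12a1, Col14a1, Col22a1 and Col26a1 were not matched. A match to these letters describes the sequence and is not a binding site.

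Levels of single genes are compared with each other per kb of exon, while sums over a class are in CPM without regard to length unless stated. Per kb, 8 collagen genes had a mean of 5 CPM per kb or more, 9 lay from 1 to under 5, 22 from 0.1 to under 1 and 4 below 0.1. The highest were Col4a1 and Col4a2, the chains of the common type IV network, at 17.4 and 13.5 CPM per kb. Next came Col9a3 at 9.82, Col2a1 at 8.89, Col5a2 at 7.63, Col18a1 at 6.07, Col4a5 at 5.86 and Col11a1 at 5.81 CPM per kb. Col1a1 and Col1a2, which make type I collagen, the main protein of skin, bone and tendon, were at 0.386 and 0.877 CPM per kb. Of the summed collagen CPM of an embryo, fibrillar chains made up 33.4% to 41.4%, type IV chains 30.9% to 33.7% and fibril-associated chains 13.3% to 19.4%.

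**Figure D1:**
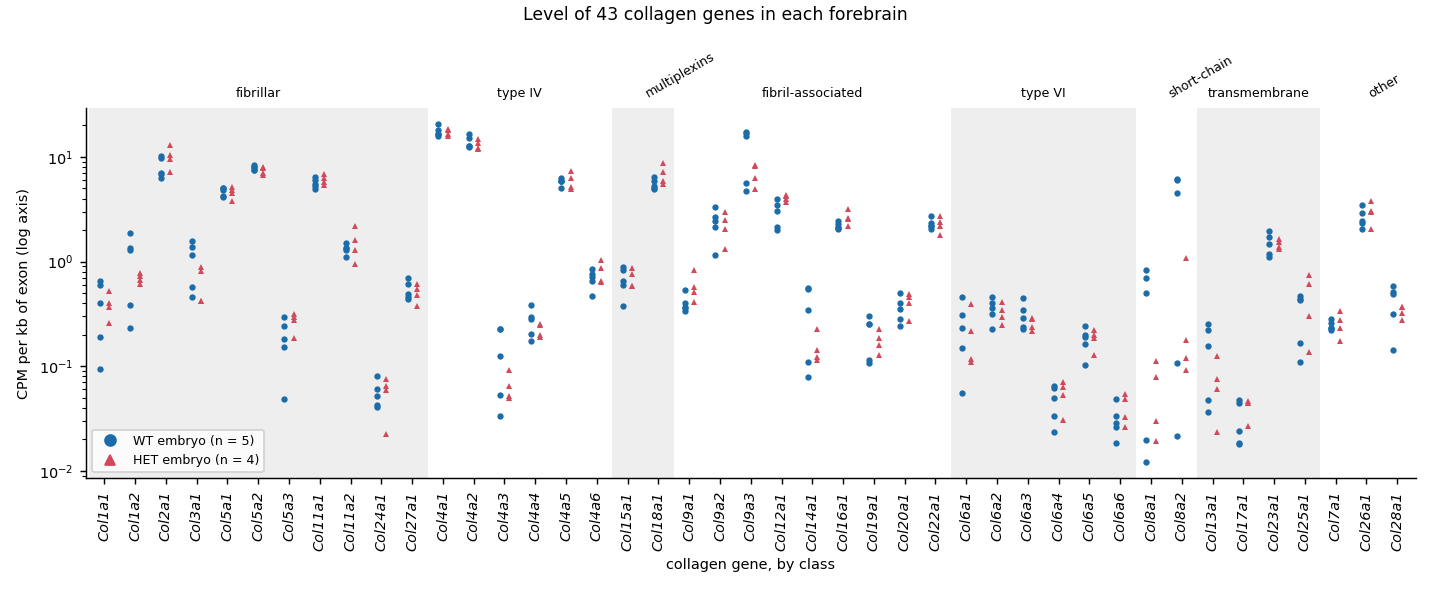
Level of each of the 43 collagen genes in every embryo, in CPM per kb of exon on a log axis, with genes ordered by class (shaded blocks alternate) and points for 5 WT (circles) and 4 HET (triangles) embryos. Col4a1 and Col4a2 sit at the top with tightly packed points, whereas Col8a1 and Col8a2 spread over the widest range.

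In HET against WT, none of the 43 collagen genes passed an adjusted p of 0.05 in edgeR's quasi-likelihood test, with a lowest adjusted p of 0.908, against 25 of 17818 genes tested (0.14%). At an unadjusted p under 0.05, 4 collagens were higher in HET (Col9a1, Col12a1, Col16a1 and Col18a1) where 2.32% of all genes tested were, and 2 were lower (Col8a1 and Col8a2) where 3.09% of all genes were. DESeq2 gave 0 collagens at adjusted p and 7 at unadjusted p, and limma-voom gave 0 and 3 (4.71% of the 17818 genes). The share for DESeq2 was 3.66%, but over 33233 genes that had not passed the filter on low counts, so it is not on the same base. In 0 of the 43 did the HET and WT embryos fall without overlap, compared with 0.78% of all genes tested for HET above WT and 1.07% for HET below WT. Log2 fold changes were positive for 20 and negative for 23 collagens, with a median of -0.0107 against -0.00463 over all genes tested, and their median biological coefficient of variation was 0.25 against 0.141 over all genes tested. The 6 calls at unadjusted p became 10 without WT5 and 8 without WT43, and 1 without WT41, 0 without HET6, 2 without HET5 and 3 without WT15. The share of all genes at unadjusted p in these fits was not counted, so a shift of the collagens alone cannot be read from them.

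Summed over its 11 genes, the fibrillar class came to 303.5 ± 17.5 CPM (SD, n = 5) among WT embryos and to 315.7 ± 31.0 CPM (SD, n = 4) among HET embryos, and 0 of these genes had an unadjusted p under 0.05. Col2a1, the chain of type II collagen (chromosome 15), was the highest per kb. It stood at 95.2, 63.4, 57.9, 64.9 and 90.6 CPM in WT5, WT15, WT16, WT41 and WT43 and at 119.1, 95.3, 65.6 and 87.8 CPM in HET5, HET6, HET7 and HET24. The log2 fold change was 0.31 ± 0.19 (SE; edgeR adjusted p = 0.911), 0.12 with the choroid plexus score and 0.00654 in the 5 embryos with little Ttr, and Col2a1 was the only collagen for which the 3 embryos with the most Ttr were all below the other 6. Type II collagen is the main collagen of cartilage. The summed CPM of 8 other cartilage markers was 5.29 to 8.77, most of it from Cnmd at 4.54 to 8.27 CPM, and 4 of these markers stayed under 0.1 CPM in every embryo. Which cells held the Col2a1 RNA was not tested.

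Col5a2, a chain of type V collagen, which starts and limits the width of type I fibrils, showed little spread. Its values were 76.2, 75.9, 71.6, 71.2 and 79.7 CPM in the WT embryos in the same order and 75.5, 76.8, 64.2 and 67.3 CPM in the HET embryos. Col11a1, a chain of type XI collagen, which has the same role in type II fibrils, ran at 63.3, 81.7, 66.4, 69.7 and 76.2 CPM in WT and 80.5, 68.7, 73.0 and 86.9 CPM in HET. Both groups overlapped for both genes, with log2 fold changes of -0.08 ± 0.07 (SE) for Col5a2 and 0.11 ± 0.09 (SE) for Col11a1. Col5a1 was as steady, between 32.5 and 43.4 CPM.

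The 2 chains of type I collagen varied far more than these. Col1a2 (chromosome 6) measured 4.74, 23.4, 16.6, 15.9 and 2.87 CPM in WT5, WT15, WT16, WT41 and WT43, with the HET embryos between at 7.60, 8.26, 9.05 and 9.71 CPM. Col1a1 (chromosome 11) measured 1.25, 4.26, 3.91, 2.65 and 0.618 CPM in WT and 1.69, 3.40, 2.62 and 2.42 CPM in HET. For both genes the lowest embryos were WT5 and WT43 and the highest were WT embryos rich in Ttr, so that the HET embryos lay inside the WT range. The ratio of Col1a2 to Col1a1 per kb was between 1.28 and 3.17 in the 9 embryos.

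The HET against WT value for type I chains therefore differed between the models. Col1a2 had a log2 fold change of -0.55 ± 0.49 (SE; edgeR adjusted p = 0.912) over all embryos, 0.62 ± 0.25 with the choroid plexus score (adjusted p = 0.911) and 1.13 ± 0.24 in the 5 embryos with little Ttr (adjusted p = 0.734). Col1a1 had -0.01 ± 0.46, 0.90 ± 0.37 and 1.46 ± 0.41 in the same order, with edgeR adjusted p of 0.998, 0.911 and 0.999. In the 5 embryos with little Ttr, each of the 3 HET embryos was above both WT embryos for the 2 genes. None of these values passed the adjusted threshold, and the part that choroid plexus or meningeal tissue in the dissection played in them was not tested.

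Of the other fibrillar genes, Col3a1, which forms reticular fibrils of vessel walls, was at 5.65, 15.5, 13.6, 11.4 and 4.48 CPM in WT and 4.16, 4.17, 8.63 and 7.89 CPM in HET. Its 3 highest values were again those of WT15, WT16 and WT41, and its log2 fold change went from -0.70 ± 0.38 (SE) over all embryos to -0.0408 with the choroid plexus score and 0.16 in the 5 embryos with little Ttr. Col5a3, a further type V chain, ran at 1.23, 1.99, 1.04, 1.64 and 0.331 CPM in WT and 1.88, 1.28, 2.15 and 2.02 CPM in HET. Its low value in WT43 set it among the genes with a range of over 4-fold, and its log2 fold change was 0.55 ± 0.38 over all embryos, 1.003 with the choroid plexus score and 1.20 in the 5 embryos with little Ttr. Col11a2, Col24a1 and Col27a1 had mean levels of 0.0555 to 1.41 CPM per kb, with log2 fold changes from -0.09 to 0.20.

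The 6 type IV genes together gave 270.9 ± 29.7 CPM (SD, n = 5) among WT embryos and 264.2 ± 10.4 CPM (SD, n = 4) among HET embryos, and 0 of them had an unadjusted p under 0.05. Col4a1 stood at 124.5, 152.2, 117.6, 135.0 and 122.6 CPM in WT5, WT15, WT16, WT41 and WT43 and at 123.9, 119.3, 134.4 and 136.4 CPM in the HET embryos. Col4a2 stood at 83.5, 110.3, 84.2, 99.7 and 81.7 CPM in WT and 79.6, 79.2, 90.3 and 97.3 CPM in HET. The groups overlapped for both, and the log2 fold changes were -0.02 ± 0.08 (SE) for Col4a1 and -0.09 ± 0.10 (SE) for Col4a2. For this pair, which shares the start region printed above and encodes the 2 chains of 1 trimer, the ratio of Col4a1 to Col4a2 per kb stayed between 1.20 and 1.38.

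The other 2 head-to-head pairs did not keep so fixed a ratio. Col4a5, on the X chromosome, ran at 39.9, 42.1, 33.5, 39.8 and 39.9 CPM in WT and 49.5, 41.9, 34.3 and 33.4 CPM in HET, and its ratio to Col4a6 per kb was 7.03 to 10.7. Col4a3 measured 0.337, 2.25, 1.26, 2.25 and 0.530 CPM in WT and 0.498, 0.512, 0.640 and 0.921 CPM in HET, and the ratio of Col4a4 to Col4a3 was 1.31 to 5.97. The highest ratio was in WT5 and rested on 14 counts of Col4a3. Col4a3 and Col4a4, known from the basement membrane of the kidney glomerulus, were both highest in the 3 embryos with the most Ttr. The Col4a3 log2 fold change of -1.05 ± 0.51 (SE) became 0.0272 with the choroid plexus score and 0.34 in the 5 embryos with little Ttr. Since 5.65% of the Col4a3 exonic bases overlap a gene on the other strand and the strand setting of the counting is not given, some of its reads cannot be assigned.

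The ratio of summed fibrillar to summed type IV CPM was 1.17, 1.04, 1.15, 1.04 and 1.23 in WT5, WT15, WT16, WT41 and WT43 and 1.31, 1.25, 1.025 and 1.20 in HET5, HET6, HET7 and HET24. The means were 1.13 ± 0.08 (SD, n = 5) and 1.20 ± 0.12 (SD, n = 4), a log2 difference of 0.09, and the groups overlapped over most of their range. The highest ratio was in HET5 and the lowest in HET7. Which class is higher depends on the scale. Summed per kb of exon, the fibrillar class was below type IV in every embryo, with ratios of 0.735 to 0.941 and means of 0.81 ± 0.06 (SD, n = 5) for the WT embryos and 0.86 ± 0.09 (SD, n = 4) for the HET embryos.

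**Figure D2:**
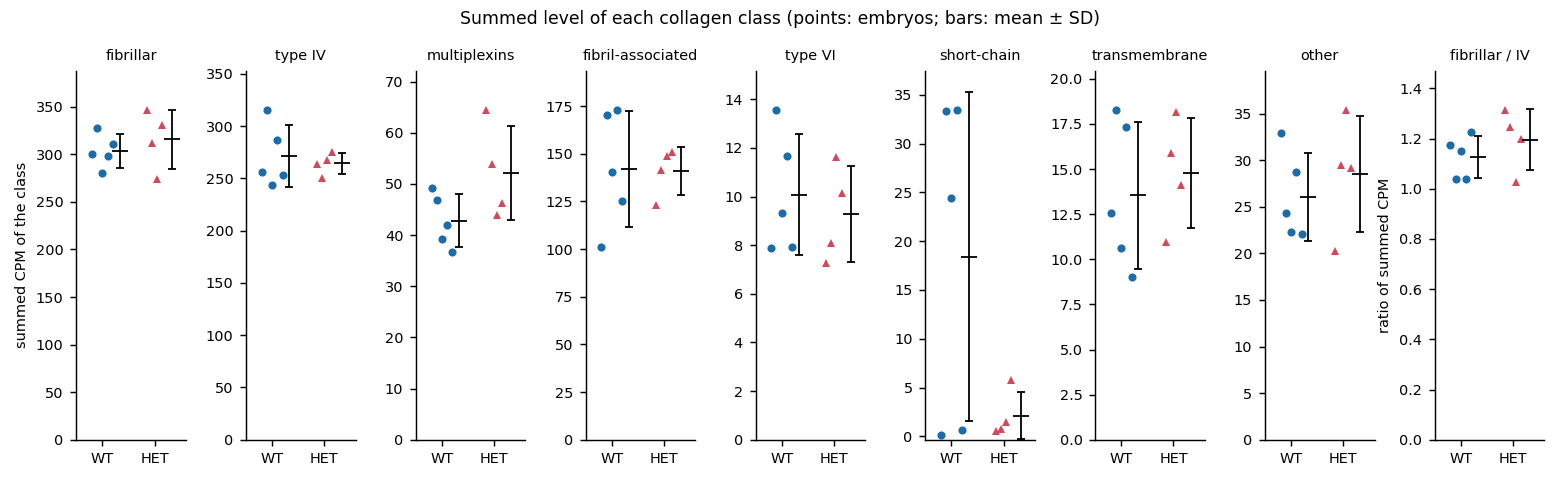
Summed CPM of each collagen class per embryo (circles WT, n = 5; triangles HET, n = 4; black bars mean ± SD), each panel with its own linear axis including 0, and in the last panel the ratio of fibrillar to type IV CPM. The groups overlap in every panel, and the short-chain panel shows 3 WT embryos between 24.4 and 33.5 CPM above all others.

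The multiplexins are basement membrane collagens with heparan or chondroitin sulfate chains. Col18a1 (chromosome 10), the source of endostatin, was among the collagens with an unadjusted p under 0.05, with 45.4, 41.1, 35.1, 36.7 and 34.3 CPM in WT and 60.7, 50.1, 38.4 and 41.5 CPM in HET. Only HET5 and HET6 were above the WT range, and the log2 fold change was 0.31 ± 0.13 (SE; edgeR unadjusted p = 0.043, adjusted p = 0.911). Col15a1 lay between 2.38 and 5.66 CPM with a log2 fold change of 0.07 ± 0.24.

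Among the 9 fibril-associated collagens, 3 of the 4 unadjusted higher calls were found, where 2.32% of all genes tested were higher. Col12a1 (chromosome 9), which binds type I fibrils, stood at 32.7, 53.2, 30.7, 46.1 and 59.9 CPM in WT and 56.8, 65.8, 59.7 and 64.3 CPM in HET. HET6 and HET24 were above every WT embryo, HET5 and HET7 were just below WT43, and the log2 fold change was 0.47 ± 0.18 (SE; edgeR unadjusted p = 0.0237, adjusted p = 0.908). It was 0.46 with the choroid plexus score and 0.39 in the 5 embryos with little Ttr. Col16a1 (chromosome 4) was at 14.3, 13.7, 14.1, 15.5 and 16.6 CPM in WT and 21.3, 17.7, 14.7 and 17.2 CPM in HET, of which HET7 fell inside the WT range, for a log2 fold change of 0.26 ± 0.11 (SE; edgeR adjusted p = 0.911).

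Type IX collagen, which decorates type II fibrils, is a trimer of the products of Col9a1, Col9a2 and Col9a3, and the 3 genes had unlike patterns here. Col9a1 (chromosome 1) was at 1.85, 1.70, 2.74, 2.03 and 1.83 CPM in WT and 2.08, 2.89, 4.23 and 2.61 CPM in HET, a log2 fold change of 0.54 ± 0.22 (SE; edgeR unadjusted p = 0.0308, adjusted p = 0.908). Col9a2 was at 6.56, 8.33, 7.57, 10.2 and 3.60 CPM in WT and 4.11, 6.33, 9.17 and 7.69 CPM in HET, with a log2 fold change of -0.09 ± 0.29. Col9a3 (chromosome 2) was at 21.6, 65.8, 61.3, 67.2 and 18.1 CPM in WT and 19.1, 24.1, 31.2 and 32.1 CPM in HET. Its 3 highest embryos were those with the most Ttr, the next was HET24, and its log2 fold change of -0.81 ± 0.39 (SE; edgeR adjusted p = 0.911) became 0.00794 with the choroid plexus score and 0.32 in the 5 embryos with little Ttr. The ratio of Col9a3 to Col9a1 per kb ran from 9.71 in HET7 to 50.8 in WT15, so these chains were not counted in fixed proportion. Of the Col9a3 exonic bases, 6.07% overlap Tcfl5 on the other strand.

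Col14a1, which binds decorin on fibrils, was likewise highest in WT15, WT16 and WT41 and next in HET24, with 0.553, 3.91, 2.41, 3.83 and 0.772 CPM in WT and 0.866, 1.001, 0.806 and 1.57 CPM in HET. The log2 fold change was -1.12 ± 0.54 (SE) over all embryos, 0.0757 with the choroid plexus score and 0.42 in the 5 embryos with little Ttr. Col19a1, Col20a1 and Col22a1 had log2 fold changes from -0.25 to 0.19 with overlapping groups, and Col22a1 was the highest of the 3 at 2.28 CPM per kb.

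Type VI collagen, whose beaded filaments run next to basement membranes, was low, with class sums of 7.25 to 13.6 CPM. Col6a1 was at 0.649, 1.99, 1.35, 1.024 and 0.243 CPM in WT and 0.476, 0.512, 1.71 and 0.940 CPM in HET. Col6a2 was at 1.88, 3.85, 3.02, 3.35 and 2.63 CPM in WT and 2.44, 2.07, 3.45 and 2.88 CPM in HET. Col6a3 was at 2.86, 5.33, 3.46, 4.16 and 2.74 CPM in WT and 2.62, 2.82, 3.41 and 3.49 CPM in HET. WT15 had the most of each of these chains, the partners of 1 trimer, and the log2 fold changes were -0.20, -0.12 and -0.27 with all adjusted p at 0.911 or more in edgeR. Their chain ratios were not constant, since Col6a2 to Col6a1 per kb ran from 1.02 to 5.69. Col6a4, Col6a5 and Col6a6, which lie next to each other on chromosome 9, had means of 0.0351 to 0.181 CPM per kb and log2 fold changes from 0.03 to 0.35.

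The short-chain collagens, Col8a1 (chromosome 16) and Col8a2 (chromosome 4), form the hexagonal network under endothelia such as that of the cornea, and they had the largest log2 fold changes of all 43 genes. Col8a2 stood at 0.0962, 27.9, 20.5, 26.9 and 0.486 CPM in WT5, WT15, WT16, WT41 and WT43 and at 0.411, 0.535, 0.806 and 4.86 CPM in HET5, HET6, HET7 and HET24. Col8a1 stood at 0.0962, 5.48, 3.93, 6.57 and 0.155 CPM in WT and 0.152, 0.233, 0.620 and 0.883 CPM in HET. Only WT15, WT16 and WT41 were high for either gene, WT5 and WT43 were as low as the HET embryos with little Ttr, and WT5 rested on 4 counts for each gene. HET24, the HET embryo with 466.3 CPM of Ttr, was the fourth highest for both.

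Over all 9 embryos the log2 fold changes were -3.18 ± 1.29 (SE; edgeR unadjusted p = 0.031, adjusted p = 0.908) for Col8a2 and -2.76 ± 1.04 (SE; unadjusted p = 0.0227, adjusted p = 0.908) for Col8a1. With the choroid plexus score they were 0.34 ± 0.28 and 0.20 ± 0.44, and in the 5 embryos with little Ttr they were 0.98 ± 0.60 and 1.40 ± 0.73, so that the direction over all embryos was reversed in both. The ratio of Col8a2 to Col8a1 per kb was 7.14 to 9.09 in the 3 embryos with the most Ttr and 9.60 in HET24, and 1.74 to 5.48 in the other 5. In those 5 the ratio rested on 4 to 30 counts of Col8a1 and 4 to 39 of Col8a2.

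**Figure D3:**
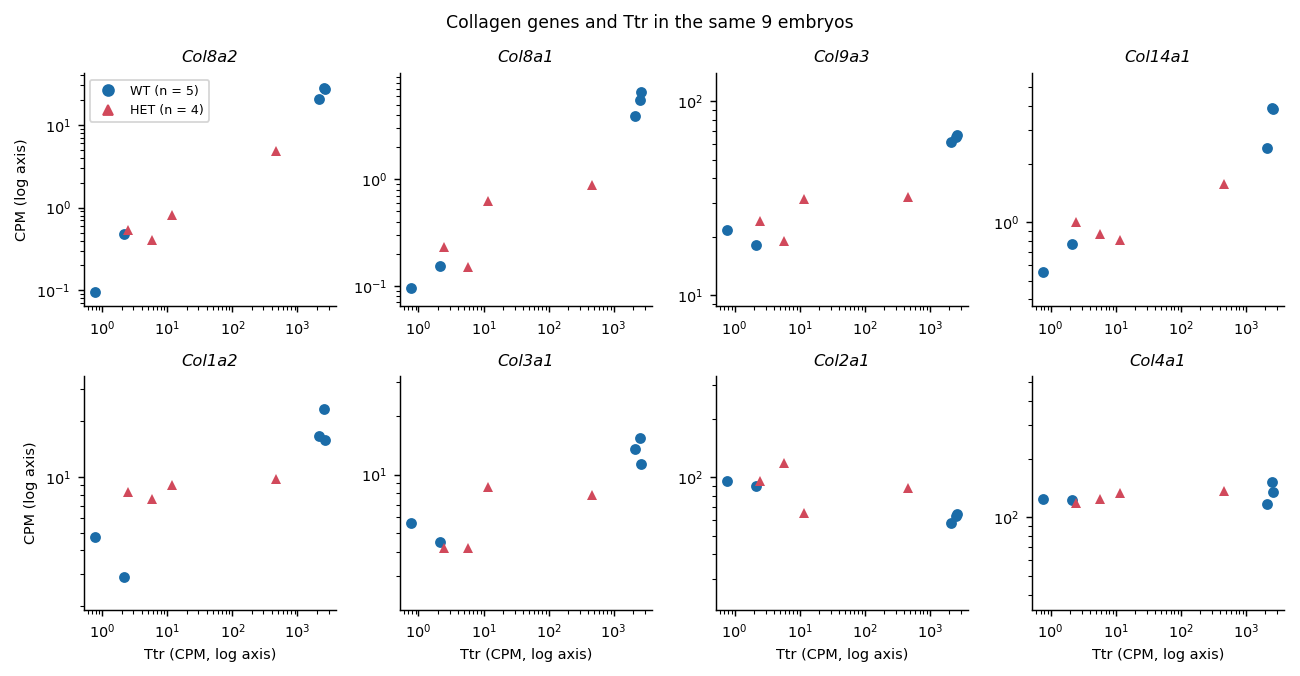
CPM of 8 collagen genes against the CPM of Ttr in the same embryo, both on log axes, with circles for 5 WT and triangles for 4 HET embryos. Col8a2, Col8a1, Col9a3, Col14a1, Col1a2 and Col3a1 are highest in the 3 WT embryos with 2125 to 2629 CPM of Ttr, Col2a1 is lowest there, and Col4a1 lies between 117.6 and 152.2 CPM throughout.

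Over the 43 genes, 9 collagens (Col1a2, Col3a1, Col4a3, Col4a4, Col8a1, Col8a2, Col9a3, Col13a1 and Col14a1) were higher in each of the 3 embryos with the most Ttr than in any of the other 6, where 5.64% of all genes tested were. One gene, Col2a1, was lower in each of them, where 3.17% of all genes were. For 7 of the 9, HET24 was the highest of the other 6, but how often this held over all genes was not counted. These 3 embryos are all WT, and this is an order of values with no test.

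Transmembrane collagens span the cell membrane with a collagenous ectodomain, and their class summed to 9.03 to 18.3 CPM. Col23a1 was the highest per kb, at 6.73, 11.3, 8.37, 9.89 and 6.38 CPM in WT and 8.77, 7.56, 7.89 and 9.38 CPM in HET. Col25a1, known from amyloid plaques, was at 5.50, 5.70, 1.41, 6.13 and 2.16 CPM in WT and 1.77, 7.89, 9.65 and 3.90 CPM in HET. Its values were low in WT16, WT43 and HET5 and highest in HET6 and HET7, and its log2 fold change was 0.47 ± 0.51 (SE; edgeR adjusted p = 0.924). Col13a1, of neuromuscular junctions and focal adhesions, was at 0.108 to 1.17 CPM, with log2 fold changes of -1.004 over all embryos, 0.19 with the choroid plexus score and 0.33 in the 5 embryos with little Ttr, and Col17a1 at 0.109 to 0.283 CPM.

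Of the remaining genes, Col26a1 was at 28.1, 20.1, 19.3, 23.6 and 16.7 CPM in WT and 16.9, 24.8, 31.1 and 24.3 CPM in HET, with a log2 fold change of 0.17 ± 0.18 (SE). Col28a1 was at 2.38, 1.55, 0.696, 2.83 and 2.49 CPM in WT and 1.58, 1.79, 1.82 and 1.34 CPM in HET. WT16 alone was low for it, and its log2 fold change of -0.29 ± 0.33 (SE) became -0.49 in the 5 embryos with little Ttr. Col7a1, the anchoring fibril collagen of skin, was steady at 1.77 to 3.47 CPM.

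With the choroid plexus score in the model, 0 collagens passed the adjusted threshold in edgeR (lowest adjusted p 0.911) and 5 were higher in HET at unadjusted p (Col1a1, Col1a2, Col5a3, Col9a1 and Col12a1), where 2.94% of all genes were. The median log2 fold change of the 43 genes was then 0.16, against -0.000131 over all genes. In the 5 embryos under 100 CPM of Ttr, 2 WT and 3 HET, 0 passed the adjusted threshold (lowest adjusted p 0.734), 3 were higher at unadjusted p (Col1a1, Col1a2 and Col5a3) where 2.05% of all genes were, and 1 was lower (Col28a1) where 1.65% were. There, 35 of 43 log2 fold changes were positive (50.6% over all genes tested), with a median of 0.21 against 0.00239 over all genes. The HET embryos lay above both WT embryos for 6 collagens (Col1a1, Col1a2, Col5a3, Col9a1, Col14a1 and Col23a1), where 8.36% of all genes did, and below both for Col28a1, where 8.94% did. Choroid plexus markers were not level between HET and WT in these 5 embryos. All 6 of them tested there had a positive log2 fold change, with a median of 0.64, and 3 were higher at unadjusted p (2.05% of all genes). The log2 fold change of Ttr itself was 2.19 ± 0.71 (SE) there, and 1.69 ± 0.35 (SE) with the choroid plexus score in the model. Ttr is 1 of the 8 markers that make up the score, and its value with the score was the highest of the 8. The median of the 8 with the score was 0.11 and the lowest was -0.23. Embryos with 100 CPM of Ttr or more were 3 WT and 1 HET, too few for the same comparison among them.

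**Figure D4:**
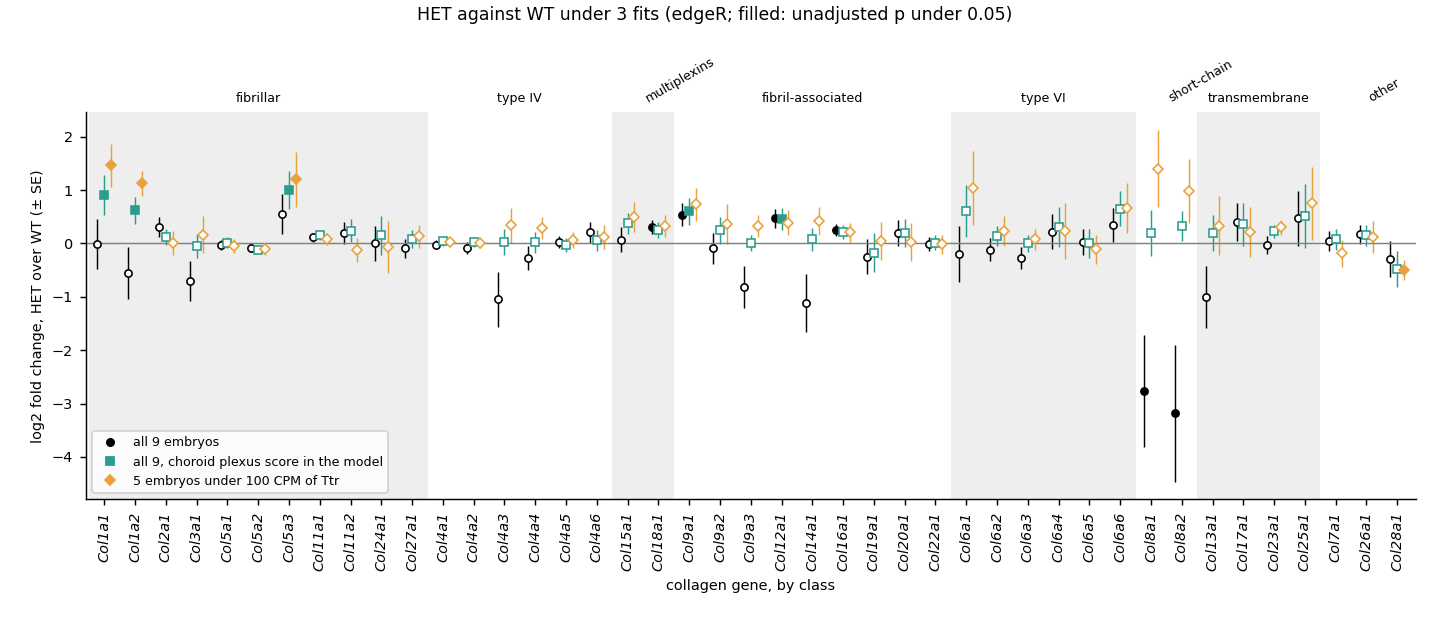
Log2 fold change of HET over WT for each collagen gene, with error bars of 1 SE, over all 9 embryos (circles), with the choroid plexus score in the model (squares) and in the 5 embryos under 100 CPM of Ttr (diamonds), filled where the unadjusted p is under 0.05. Col8a1 and Col8a2 move from near -3 to above 0, while Col4a1, Col4a2, Col5a1 and Col5a2 stay between -0.12 and 0.04 in all 3.

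The genes that make, process, bind and degrade collagens were followed in 6 lists of 78 genes, of which 72 were tested. In edgeR 0 passed the adjusted threshold, where 0.14% of all genes tested did. At unadjusted p, 3 were higher and 10 lower (2.32% and 3.09% of all genes tested), and the median log2 fold change was -0.0557. In the 5 embryos with little Ttr, 4 were higher and 0 lower at unadjusted p (2.05% and 1.65% of all genes), 0 passed the adjusted threshold, and 41 of 72 log2 fold changes were positive with a median of 0.0219. The counts over all embryos also rested on single libraries, with 5 higher and 15 lower without WT5, 4 lower without WT15 or without WT41, 1 higher and 9 lower without WT16, 1 and 5 without HET6, and 1 and 6 without HET7. Here too, the share of all genes at unadjusted p in each fit was not counted. DESeq2 placed 1 of the 72 past the adjusted threshold, and this was Lama2, which encodes the laminin alpha-2 chain. Of the 33233 genes with a DESeq2 p, not filtered for low counts, 0.253% passed. DESeq2 gave 13 of the 72 at unadjusted p, where 3.66% of its 33233 genes were. With limma-voom 0 passed the adjusted threshold and 9 had an unadjusted p under 0.05, where 4.71% of all genes did.

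Of the 21 genes of prolyl and lysyl modification and folding, which stabilise the triple helix in the endoplasmic reticulum, 1 was higher at unadjusted p and 0 were lower (2.32% and 3.09% of all genes tested). P4ha3, a prolyl 4-hydroxylase subunit, was at 2.16, 4, 3.33, 3.89 and 3.13 CPM in WT and 3.29, 4.79, 5.43 and 5.18 CPM in HET, a log2 fold change of 0.50 ± 0.20 (SE; edgeR adjusted p = 0.908). HET6, HET7 and HET24 were above all WT embryos and HET5 was not. Its log2 fold change was 0.71 with the choroid plexus score and 0.76 in the 5 embryos with little Ttr.

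Among 14 genes of procollagen processing and cross-linking, 1 was higher at unadjusted p and 3 were lower (2.32% and 3.09% of all genes tested). Adamts2, which removes the N-propeptide of fibrillar procollagens, was at 4.18, 5.77, 4.59, 4.91 and 5.10 CPM in WT and 5.82, 5.70, 6.82 and 5.76 CPM in HET. WT15 alone of the WT embryos reached the HET range, and the log2 fold change was 0.29 ± 0.12 (SE), 0.34 with the choroid plexus score and 0.40 in the 5 embryos with little Ttr.

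Lox, the lysyl oxidase that starts cross-links, was at 1.97, 5.57, 4.87, 4.13 and 1.28 CPM in WT and 1.86, 1.68, 1.34 and 1.98 CPM in HET. Its high embryos were WT15, WT16 and WT41, and its log2 fold change was -1.06 ± 0.38 (SE) over all embryos, -0.33 with the choroid plexus score and 0.0032 in the 5 embryos with little Ttr. Loxl2, a lysyl oxidase relative that acts on type IV collagen, was at 3.17, 4.35, 3.87, 4.52 and 2.14 CPM in WT and 2.23, 2.40, 2.83 and 2.51 CPM in HET. Tll1, a protease that removes C-propeptides, was at 4.13, 5.70, 3.78, 5.07 and 2.49 CPM in WT and 3.18, 3.23, 3.04 and 2.38 CPM in HET. WT43 was among the lowest embryos for both, and the log2 fold changes over all embryos, with the choroid plexus score and with little Ttr were -0.54, -0.26 and -0.0931 for Loxl2 and -0.52, -0.34 and -0.0704 for Tll1.

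Of 10 collagen receptors tested of 11, 1 was higher at unadjusted p and 1 was lower (2.32% and 3.09% of all genes tested). Itga10, an integrin chain of chondrocytes, was at 2.14, 2.696, 2.17, 2.16 and 2.56 CPM in WT and 2.44, 3.14, 2.62 and 3.97 CPM in HET. HET6 and HET24 were above all WT embryos, and its log2 fold change was 0.38 ± 0.17 (SE), 0.43 with the choroid plexus score and 0.22 in the 5 embryos with little Ttr. Of the Itga10 exonic bases, 33.5% overlap Gm42957 on the same strand, so some of its reads cannot be assigned. Itga1 encodes an integrin chain that binds type IV collagen. Itga1 was at 12.3, 15.4, 11, 13.0 and 12.5 CPM in WT and 10.1, 9.82, 10.7 and 10.6 CPM in HET, the only one of the 72 genes whose groups did not overlap, where 1.07% of all genes were lower without overlap. Its log2 fold change was -0.32 ± 0.10 (SE; edgeR unadjusted p = 0.0111, adjusted p = 0.819), and -0.28 in each of the other 2 models.

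Of 16 basement membrane partners of type IV collagen, 3 were lower at unadjusted p, where 3.09% of all genes tested were. Lama2 was at 7.31, 13.6, 9.82, 11.9 and 12.4 CPM in WT and 5.93, 6.12, 8.55 and 6.27 CPM in HET. All HET embryos but HET7 were below every WT embryo, and the log2 fold change was -0.71 ± 0.18 (SE; edgeR unadjusted p = 0.00272, adjusted p = 0.521). With DESeq2 the adjusted p of Lama2 was 0.0301. Its log2 fold change was -0.61 with the choroid plexus score and -0.52 in the 5 embryos with little Ttr, so the direction was the same in the 3 models. Nid1 and Nid2 encode the nidogens, which link laminin to type IV collagen. Nid1 was at 32.3, 45.2, 32.4, 38.7 and 38.1 CPM in WT and 30.1, 29.1, 33.6 and 32.7 CPM in HET, and its log2 fold change was -0.25 ± 0.10 (SE; edgeR adjusted p = 0.908), -0.19 with the choroid plexus score and -0.18 in the 5 embryos with little Ttr. Nid2 was at 17.4, 35.2, 28.2, 31.7 and 18.1 CPM in WT and 18.7, 14.9, 14.9 and 16.7 CPM in HET, with its 3 highest values in the embryos with the most Ttr. The Nid2 log2 fold change was -0.68 ± 0.21 (SE; edgeR adjusted p = 0.719) over all embryos, -0.34 with the choroid plexus score and -0.14 in the 5 embryos with little Ttr.

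Of 6 fibril-binding small proteoglycans tested of 8, 2 were lower at unadjusted p, where 3.09% of all genes tested were. Bgn, which encodes biglycan, was at 16.0, 23.2, 18.9, 20.3 and 13.7 CPM in WT and 13.1, 13.0, 13.5 and 17.1 CPM in HET. Ogn, which encodes osteoglycin and is also one of the meningeal fibroblast markers used here, was at 3.12, 22.96, 14.6, 22.5 and 1.08 CPM in WT and 1.601, 3.35, 2.95 and 6.31 CPM in HET. Both were highest in WT15, WT16 and WT41. The log2 fold changes over all embryos, with the choroid plexus score and with little Ttr were -0.38, -0.16 and -0.17 for Bgn and -1.85, -0.0998 and 0.33 for Ogn, so that the direction turned for Ogn.

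Of 5 collagen-degrading proteases tested of 8, 1 was lower at unadjusted p, where 3.09% of all genes tested were. Fap, a serine protease of activated fibroblasts, was at 0.144, 1.04, 0.717, 0.961 and 0.287 CPM in WT and 0.108, 0.186, 0.227 and 0.460 CPM in HET, again highest in WT15, WT16 and WT41. Its log2 fold change of -1.35 ± 0.57 (SE; edgeR adjusted p = 0.91) became -0.29 with the choroid plexus score and -0.31 in the 5 embryos with little Ttr.

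The summed markers of cells that make collagen moved with part of these values. Meningeal fibroblast markers (10 of 10 tested, 0 past the adjusted threshold, 1 higher and 1 lower at unadjusted p, where 2.32% and 3.09% of all genes were) summed to 15.3 to 47.9 CPM in WT and 19.0 to 24.2 CPM in HET, and the 3 sums over 38 CPM were those of WT15, WT16 and WT41. Ogn alone gave 14.6 to 22.96 CPM of these 3 sums. Tbx18, Islr, Lum and Dcn also had their 3 highest values in those embryos, but Foxc1, Foxd1, Slc6a13, Aldh1a2 and Crabp2 did not. Aldh1a2, highest in HET5, was the higher call (log2 fold change 1.87), and Ogn was the lower call. Endothelial markers (8 of 8 tested, 0 higher and 2 lower at unadjusted p, Kdr and Pecam1, with a median log2 fold change of -0.26) summed to 122.6 to 164.1 CPM in WT and 118.6 to 130.7 CPM in HET, and mural markers (8 of 8 tested, 0 at unadjusted p, with a median of -0.10) to 98.6 to 131.0 and 93.1 to 110.6 CPM. Choroid plexus markers (8 of 8 tested, 7 lower in HET at unadjusted p) summed to 7.81 to 2896 CPM in WT and 10.4 to 518.5 CPM in HET, with the only 0 among them that of Kl in WT5. Bone markers summed to 4.01 to 10.1 CPM over all embryos, with Bglap2 at 0 throughout, skeletal muscle markers to 2 to 2.71 CPM and epidermal markers to 12.3 to 15.5 CPM. Whether the share of meninges, vessels and choroid plexus in each dissection sets the collagen values was not tested.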

How the data were processed

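Bulk forebrain RNA from 5 WT and 4 HET embryos was analysed from 1 table of raw counts per gene. According to the study's methods and processing notes, the authors prepared polyadenylated RNA with a TruSeq kit, kept single-end reads after the second reads failed, aligned them with STAR 2.7.9a to GRCm38.p6 and counted them with featureCounts of Subread. The deposited counts were not normalized. The library kit's strand setting is not given in the sources used here, so overlapping genes on opposite strands cannot be separated.

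Counts were tested as deposited with edgeR 4.0.16 (R 4.3.3; TMM scaling, filterByExpr with a minimum count of 10, glmQLFit and glmQLFTest) over all 17818 genes, with Benjamini-Hochberg adjustment and a threshold of 0.05. The study used DESeq2, and here DESeq2 1.42.0 and limma 3.58.1 were alternatives. CPM were scaled with TMM factors, and CPM per kb used exon lengths of GENCODE M21 on the same build, which held 55141 of the 55401 gene identifiers and all 44 collagens. The choroid plexus score used a pseudocount of 0.5 CPM. The SE given with an edgeR log2 fold change was derived from the test and not estimated directly. It was the absolute log2 fold change divided by the square root of the quasi-likelihood F, so it is approximate. Class sums, chain ratios and orders of embryos were described without a test. The edgeR test without a covariate was tried on simulated counts, which held no differences in choroid plexus content. The other steps were not tried on simulated data. Sequences came from RefSeq promoters of GRCm38.p6.

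Genes given with values in every embryo were the 3 highest per kb in the fibrillar and type IV classes, the highest of each other class, those at unadjusted p under 0.05 (also pathway genes), those without overlap between groups, those with a mean of 1 CPM or more and a range over 4-fold, and chains of 1 trimer. Col3a1 was given after its values were seen. The members and lists were chosen with earlier results of these data known. Precision follows from the totals of 42640218 to 62830060 counts.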

Additional observations from a re-analysis of the deposited data

Results flagged for a closer look

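Single embryos stood far from the rest of their group in 7 of the 130 groups of values examined (the collagen genes, their named partners, the class sums and the fibrillar to type IV ratio, each in WT and in HET), and chance alone gives about 6.5. Each has a gap to its nearest neighbour that is large against the range of the group by Dixon's criterion.

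Col4a5 in WT16 was 33.54 CPM, below the other WT embryos at 39.79 to 42.08 CPM. HET24, the HET embryo with the most Ttr, was high for Col8a2, at 4.855 CPM against 0.411 to 0.806 CPM in the other HET embryos, for the summed short-chain collagens at 5.737 CPM, and for Bgn at 17.15 CPM. HET7 was high for Lama2 at 8.551 CPM and for Adamts2 at 6.816 CPM. Col17a1 in HET6 was 0.1629 CPM, below 0.2685 to 0.2813 CPM in the others, a difference of few reads.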

How the results depend on the processing

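Under every alternative tried, 0 of the 43 collagen genes passed the adjusted threshold. These were DESeq2, limma-voom, RLE and upper-quartile scaling, no filter on low counts, a filter of CPM over 1 in at least 4 embryos (36 collagens tested), the choroid plexus score, the 5 embryos under 100 CPM of Ttr, and each embryo left out. DESeq2 placed 1 collagen pathway gene, Lama2, lower past the threshold. In the 5 embryos with little Ttr, the log2 ratio of group means of the summed fibril-associated collagens was 0.28 and that of the short-chain collagens 1.14, against -0.00976 and -3.12 over all embryos. The other class sums and the fibrillar to type IV ratio moved by less than the spread between embryos in all alternatives, and without 1 embryo the log2 ratio of fibrillar to type IV ran from 0.0386 to 0.15.

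The sign of these log2 fold changes turned with the choroid plexus score in the model: Col1a1 0.90, Col1a2 0.62, Col5a1 0.015, Col27a1 0.0841, Col4a1 0.0408, Col4a2 0.0304, Col4a3 0.0272, Col4a4 0.0227, Col4a5 -0.0282, Col9a2 0.25, Col9a3 0.00794, Col14a1 0.0757, Col22a1 0.0135, Col6a1 0.61, Col6a2 0.13, Col6a3 0.00647, Col8a1 0.20, Col8a2 0.34, Col13a1 0.19 and Col23a1 0.23. In the 5 embryos with little Ttr it turned for the following: Col1a1 1.46, Col1a2 1.13, Col3a1 0.16, Col11a2 -0.12, Col24a1 -0.0681, Col27a1 0.14, Col4a1 0.0282, Col4a2 0.00917, Col4a3 0.34, Col4a4 0.29, Col9a2 0.37, Col9a3 0.32, Col14a1 0.42, Col19a1 0.0473, Col6a1 1.03, Col6a2 0.24, Col6a3 0.0762, Col6a5 -0.11, Col8a1 1.40, Col8a2 0.98, Col13a1 0.33, Col23a1 0.30, Col7a1 -0.19, Lox 0.0032 and Ogn 0.33. Col1a1 was 0.000282 with DESeq2, 0.25 with limma-voom and 0.0002406 with RLE scaling, and Col24a1 was -0.0725 with limma-voom and -9.947e-06 without the filter, both near 0 over all embryos. With 1 embryo left out, the log2 fold change crossed 0 for 14 genes, with these ranges: Col11a2 -0.0375 to 0.37, Col15a1 -0.0709 to 0.20, Col1a1 -0.25 to 0.26, Col22a1 -0.11 to 0.0876, Col23a1 -0.10 to 0.10, Col24a1 -0.19 to 0.26, Col27a1 -0.19 to 0.0295, Col4a1 -0.055 to 0.0435, Col4a5 -0.096 to 0.10, Col5a1 -0.0825 to 0.0546, Col6a1 -0.70 to 0.16, Col6a5 -0.11 to 0.17, Col7a1 -0.11 to 0.20 and Col9a2 -0.26 to 0.089. Pathway genes at an unadjusted p numbered 1 to 5 higher and 4 to 15 lower when 1 embryo was left out. Collagens at an unadjusted p numbered 0 to 4 higher and 0 to 7 lower when 1 embryo was left out. For both sets, the share of all genes called in the same fits was not counted. The cause of these shifts was not tested.

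No paired analysis was possible because the labels give neither litters nor pairs of embryos. Counts limit the genes at the low end: Col8a1 and Col8a2 rested on 4 counts each in WT5, and the 4 genes under 0.1 CPM per kb were measured with the least precision.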

Other observations

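Col10a1, the collagen outside the count rule, was highest in WT15, WT16 and WT41, at 0.553, 0.326 and 0.331 CPM, and at 0.0221 to 0.140 CPM in the other embryos. The genes outside the collagens whose log2 CPM followed the summed fibrillar level most closely over the 9 embryos were Stab1, Nmnat1, Soat1, Nhlh2 and Gm10167 (Pearson r 0.874 to 0.898). For summed type IV they were Kif6, Pde8a, Ccdc157, Grk4 and Mylk (r 0.914 to 0.938). These are the closest of 14325 genes searched over 9 embryos that differ in choroid plexus content, given as a description with no test.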
